A study of Mus musculus with 12 samples.

Results

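Cyclins, cyclin-dependent kinases, mitotic kinases and the proteins of the spindle and chromosomes were followed in the cerebellum of mice with a mutant U2 snRNA. The genes were chosen by name from a list of 50 cell cycle genes, and a gene was measured where a row of the array tables carried its symbol and no other. Of these, 46 were measured at gene level, among 14847 genes with a row of their own, and they held 779 of the 209279 exon-level probe sets with 1 symbol. Ccnb1, Cenpf, E2f3 and Rrm2 had no such gene-level row and were not analysed here. The mutant group was 3 female NMF291–/– mice at postnatal day 30, homozygous for a 5-nucleotide deletion in Rnu2-8, a gene for U2 snRNA. The other group was 3 wild-type females of the same age. Each mouse gave 1 Affymetrix Mouse Exon 1.0 ST array from RNA of the whole cerebellum, so the values average over all its cell types. The strain of the mice is not stated in the labels used here.

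Progress through the cell cycle is driven by cyclin-dependent kinases, which are active only when bound to a cyclin. D-type and E-type cyclins act up to the start of DNA synthesis, cyclin A acts through synthesis and into mitosis, and cyclin B with Cdk1 drives mitosis itself. Polo-like and Aurora kinases then build the spindle, the spindle checkpoint holds chromosome separation until every kinetochore is attached, and the anaphase-promoting complex (APC/C) ends mitosis by destroying cyclins and securin. In the mouse cerebellum, granule neuron precursors divide in the outer layer during the first weeks after birth. By the age studied here that layer has gone, and the dividing cells that remain are mainly glia and their precursors. Several genes of the group, among them Cdk5, Plk2 and the retinoblastoma family, also have roles in neurons that no longer divide.

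Median gene-level values (log2) were 8.05 to 8.09 on the mutant arrays and 8.00 to 8.03 on the wild-type arrays, and over all rows, which are not independent, arrays of one genotype correlated at 0.992 to 0.994 against 0.988 to 0.991 between genotypes. The 12 markers of mature cerebellar neurons ranked between the 85.8th and the 99.97th percentile of the gene-level rows. The level of Rnu2-8 was not analysed here. An array value depends on the probes as well as on the RNA, so levels were compared between genotypes and not between genes.

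Only 2 of the 46 genes passed the test at gene level, and both were higher in the mutant. A gene passed where its adjusted p by limma, over all 23332 gene-level rows, was under 0.05, and values are on the log2 scale as deposited. Ccna2, which encodes cyclin A2, rose 1.37-fold, and Plk1, the kinase that drives spindle assembly and mitotic exit, rose 1.29-fold. The count was 4.35% of the genes measured, close to the 4.21% of all 14847 genes that rose. None of the 46 fell, against 2.29% of all genes, and 1 gene, Ccnd1, was lower in the mutant at an unadjusted p under 0.05 by limma. At that looser limit 11 of the 46 differed in either direction, compared with 23.8% of all genes, while 6.5% of all genes passed the adjusted threshold in either direction. In 10 genes (21.7%) every mutant array lay above every wild-type array, against 19.9% of all genes, and in 2 (4.35%) every mutant array lay below, against 13.3% of all genes. The shares on the higher side lay near those of all genes, and no test of the shares was made.

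The size of the differences was small throughout. Mutant minus wild type ran between -0.32 for Ccnd1 and 0.46 for Ccna2 (log2), with a median of 0.05 against 0.005 for all genes. It was above 0 in 31 of the 46 genes (67.4%), compared with 51.8% of all genes. The median of all gene-level rows was 0.02 as deposited, -0.02 after quantile normalization and -0.03 after the array medians were made equal, so both scalings shift the differences downward overall. On those scales 27 and 24 of the 46 were above 0, with medians of 0.01 and 0.005 that again lay above the median of all rows. The mean of the 46 genes, taken relative to its wild-type mean, was 0.06, 0.06 and 0.07 on the mutant arrays and 0.02, -0.002 and -0.02 on the wild-type arrays. With equal array medians it was 0.02, -0.02 and 0.03 in mutants against 0.008, -0.006 and -0.001 in wild type, so that the groups then overlapped. Of the 46 genes, 32 had a mean level below the median row of the table. Among all 6637 genes in that lower part 1.39% rose and 0.618% fell, and Ccna2 and Plk1 were the 2 of the 32 that rose.

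**Figure D1:**
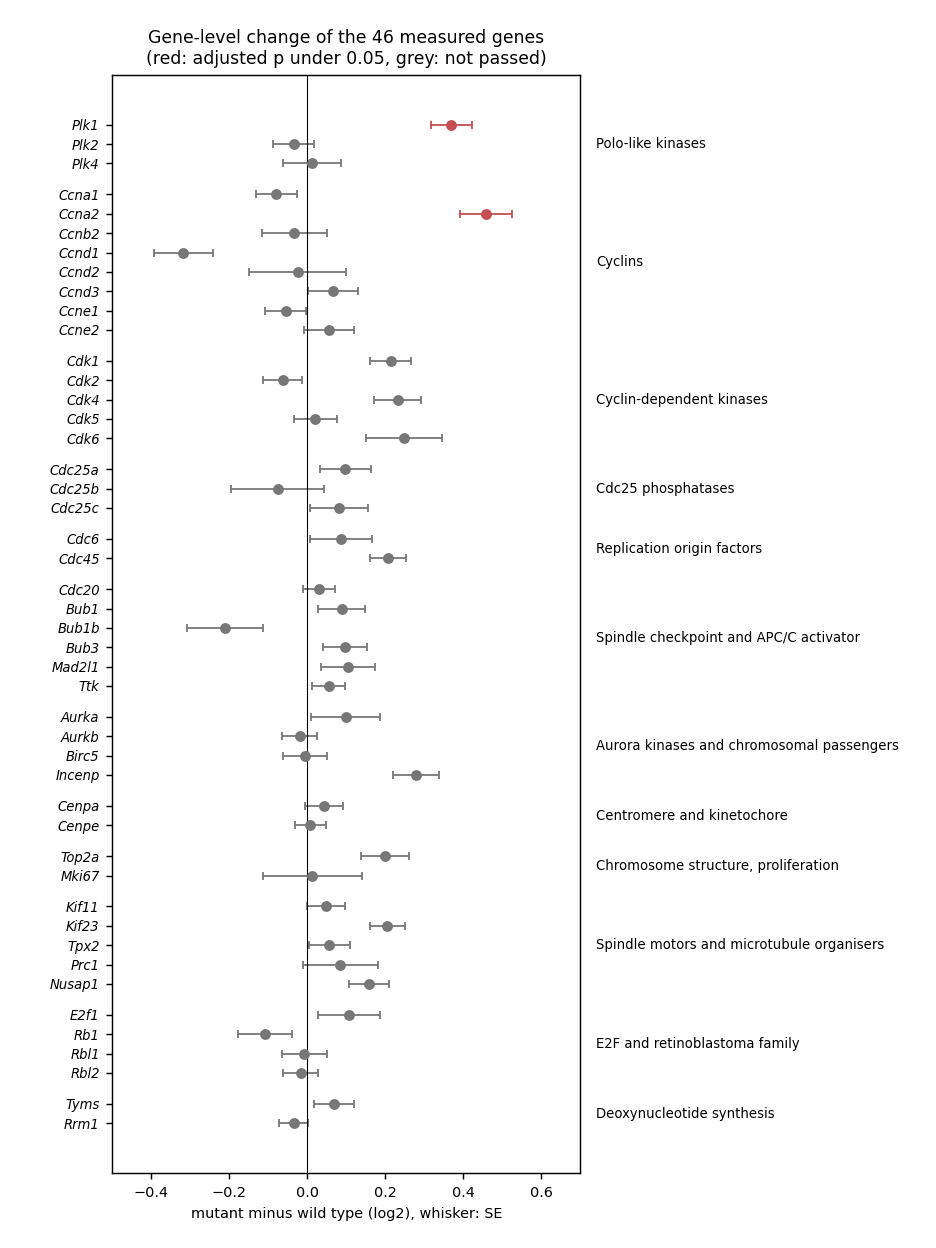
Gene-level difference of each of the 46 measured genes, mutant minus wild type on a log2 axis, with its standard error as a whisker and the genes grouped by role. Ccna2 at 0.46 and Plk1 at 0.37 are the only points in red, which marks an adjusted p under 0.05, and Ccnd1 lies lowest at -0.32.

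Plk1 is one of 3 polo-like kinases measured. Its gene-level value was 7.96, 8.07 and 8.06 on the mutant arrays, against 7.68, 7.70 and 7.61 on the wild-type arrays (log2). All mutant arrays lay above all wild-type arrays, and the gap of 0.37 ± 0.05 (SE; adjusted p = 0.0231, limma) was several times the spread within either genotype. A second row with the Plk1 symbol, at a lower level of 6.10 in mutants and 5.97 in wild type, differed by 0.13 with an adjusted p of 0.402. The other polo-like kinases did not pass. Plk4, which starts centriole duplication, differed by 0.01 ± 0.07, and Plk2, which neurons induce with activity, by -0.04 ± 0.05 (log2, SE).

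Ccna2 stood out among the 8 cyclins. It was at 7.594, 7.559 and 7.581 on the mutant arrays and at 7.221, 6.995 and 7.141 on the wild-type arrays (log2), a difference of 0.46 ± 0.07 (SE; adjusted p = 0.0247, limma). The mutant arrays were tightly grouped, with an SD of 0.02 against 0.11 in wild type. Its germ-line relative Ccna1 differed by -0.08 ± 0.05, and Ccnb2, a B-type cyclin of mitosis, by -0.03 ± 0.08, and neither passed. In bulk tissue a higher level in each cell and a larger number of cells that carry the RNA cannot be told apart, for these and all other genes here.

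These calls depended on the rows tested, on the block and on the number of arrays. With the replicate number as a block, no gene passed in the whole table of 23332 rows, and Plk1 and Ccna2 were among those lost. Leaving out any 1 array removed both calls, except that Ccna2 still passed without wild-type replicate 1. Such fits have fewer arrays, and the differences themselves changed little. With an array left out Plk1 was at 0.34 to 0.40 and Ccna2 at 0.40 to 0.51 (log2). When adjusted over the 16755 transcript cluster rows alone, 8 of the 46 genes passed, where 11.7% of those rows did: Plk1, Ccna2, Cdk1, Cdk4, Cdc45, Incenp and Kif23 were higher and Ccnd1 lower.

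The promoters of Plk1, Kif23, Cdc45 and Cdk1 are given here. These are the 4 genes of the group with the smallest gene-level p by limma among those with a promoter entry. They were searched for sequence elements by which mitotic genes are known to be timed. The cell cycle genes homology region (CHR) is bound by the DREAM and MuvB complexes, CCAAT boxes by NF-Y, and E2F sites by E2F proteins. The windows, from RefSeq on GRCm38.p6, run from 250 bases before to 50 bases after the annotated start and are written 5′ to 3′ on the strand of the gene. Capitals mark 3 kinds of motif. The CHR core was searched as TTTGAA. The box bound by NF-Y was searched as CCAAT. For E2F 4 octamers were searched, the first being TTTCCCGC, the next TTTGGCGC, then TTTCGCGC and last TTTGCCGC. All were searched on both strands, so that a motif can also stand as its reverse complement. None of these motifs contains another. The Plk1 window is chr7:122159185-122159484 on the plus strand, and those of Kif23 at chr9:61946750-61947049, Cdc45 at chr16:18811923-18812222 and Cdk1 at chr10:69352863-69353162 are on the minus strand.
Plk1 promoter: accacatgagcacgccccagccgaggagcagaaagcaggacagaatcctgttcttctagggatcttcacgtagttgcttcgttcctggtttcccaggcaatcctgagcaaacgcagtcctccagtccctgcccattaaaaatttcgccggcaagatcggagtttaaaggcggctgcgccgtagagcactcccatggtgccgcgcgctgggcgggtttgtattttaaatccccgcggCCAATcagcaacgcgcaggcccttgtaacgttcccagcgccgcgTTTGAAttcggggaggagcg
Kif23 promoter: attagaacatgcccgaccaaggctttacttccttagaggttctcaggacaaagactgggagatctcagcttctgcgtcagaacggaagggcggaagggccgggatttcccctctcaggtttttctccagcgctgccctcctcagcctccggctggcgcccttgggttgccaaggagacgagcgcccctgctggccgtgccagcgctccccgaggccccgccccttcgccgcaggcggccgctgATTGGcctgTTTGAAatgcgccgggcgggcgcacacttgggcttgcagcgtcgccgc
Cdc45 promoter: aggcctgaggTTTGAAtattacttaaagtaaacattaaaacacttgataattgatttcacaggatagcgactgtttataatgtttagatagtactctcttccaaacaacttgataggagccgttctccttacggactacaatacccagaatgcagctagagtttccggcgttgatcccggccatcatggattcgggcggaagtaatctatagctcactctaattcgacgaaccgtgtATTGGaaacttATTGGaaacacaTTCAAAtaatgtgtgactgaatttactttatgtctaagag
Cdk1 promoter: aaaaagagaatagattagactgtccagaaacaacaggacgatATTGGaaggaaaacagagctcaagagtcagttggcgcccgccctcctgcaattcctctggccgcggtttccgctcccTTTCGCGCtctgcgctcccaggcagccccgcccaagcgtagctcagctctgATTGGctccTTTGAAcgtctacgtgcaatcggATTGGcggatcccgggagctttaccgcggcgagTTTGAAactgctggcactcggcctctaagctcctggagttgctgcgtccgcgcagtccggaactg

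In the Plk1 window a CCAAT box stood at bases -14 to -10 and a CHR core at 31 to 36, counted from the start as base 1. Kif23 had the same pair closer together, at -7 to -3 and 3 to 8. Cdk1 held CHR cores at -71 to -66 and -15 to -10, CCAAT boxes at -208 to -204, -80 to -76 and -48 to -44, and an E2F octamer (TTTCGCGC) at -131 to -124. Of the 46 measured genes, 36 matched the RefSeq promoter table, with 39 windows. The genes not listed there are Ccna2, Ccnd1, Ccnd2, Ccne2, Cdk5, Cdc25c, Aurkb, Incenp, Tpx2 and Rb1. A CHR core was in 18 of the 39 windows (46.2%), against 17.9% of all 32851 windows of the same length. CCAAT was in 64.1% against 37.4%, and an E2F octamer in 12.8% against 2.26%. A gene-level difference above 0 was found in 51.8% of all genes. Among the 16 genes with a CHR core, 13 had one, with a median of 0.07 (log2), and among the 20 without, 12 did, with a median of 0.04. For CCAAT the counts were 17 of 23 with the box and 8 of 13 without, with medians of 0.05 and 0.07, and for E2F they were 3 of 5 with an octamer and 22 of 31 without, with medians of 0.09 and 0.05. Cdk4, Cdk6 and Nusap1, whose mutant values all lay above wild type, had none of the 3 kinds of motif. Ccnb2 and Bub1b had a CHR core and a CCAAT box, with differences of -0.03 and -0.21. All these matches describe the letters in the window and say nothing of which factor binds there.

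The cyclins that act before DNA synthesis did not pass. Ccnd1, the D-type cyclin that growth signals induce, had 9.64, 9.68 and 9.63 in mutants and 10.13, 9.90 and 9.88 in wild type (log2). Its mutant values all lay below its wild-type values, with a difference of -0.32 ± 0.08 (SE; adjusted p = 0.0709, limma), and wild-type replicate 1 was the highest array. Ccnd1 passed as lower in the mutant after quantile normalization and after the array medians were made equal. Ccnd2 at -0.02 ± 0.12, Ccnd3 at 0.07 ± 0.06, Ccne1 at -0.06 ± 0.05 and Ccne2 at 0.06 ± 0.06 (log2, SE) all had overlapping groups.

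No cyclin-dependent kinase passed. In 3 of 5 all mutant arrays lay above wild type, where 19.9% of all genes had such groups. Cdk1, the kinase of mitosis, was at 6.80, 6.78 and 6.73 in mutants and 6.54, 6.50 and 6.64 in wild type, a difference of 0.21 ± 0.05 (log2, SE; adjusted p = 0.0776, limma). Cdk4, the main partner of the D-type cyclins, was at 11.37, 11.52 and 11.54 in mutants, against 11.28, 11.24 and 11.22 in wild type, a difference of 0.23 ± 0.06 with an adjusted p of 0.0846. The lowest mutant array of Cdk4 lay just above the highest wild-type array. Cdk6, the other partner of D-type cyclins, differed by 0.25 ± 0.10 (adjusted p = 0.205), and Cdk2, which works with cyclins E and A, by -0.06 ± 0.05. Cdk5, which despite its name acts in neurons after division, was at 10.97, 11.11 and 11.09 in mutants and 11.08, 10.99 and 11.03 in wild type. Its difference of 0.02 ± 0.06 (adjusted p = 0.870) turned to -0.03 when the array medians were made equal, and its groups overlapped.

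The Cdc25 phosphatases, which remove the inhibitory phosphates from cyclin-dependent kinases, did not pass. Cdc25a differed by 0.10 ± 0.07, Cdc25b by -0.08 ± 0.12 and Cdc25c by 0.08 ± 0.07 (log2, SE). For Cdc25b a single array set the spread: wild-type replicate 2 was at 8.18, while the other wild-type arrays were at 7.75 and 7.79 and the mutant arrays at 7.90, 7.79 and 7.80. Of the proteins that license and fire replication origins, Cdc45, a subunit of the replicative helicase, had 7.63, 7.69 and 7.70 in mutants and 7.43, 7.52 and 7.46 in wild type. Its groups were apart by 0.21 ± 0.05 with an adjusted p of 0.0614 by limma. Cdc6, which loads the helicase, overlapped between genotypes with a difference of 0.09 ± 0.08.

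**Figure D2:**
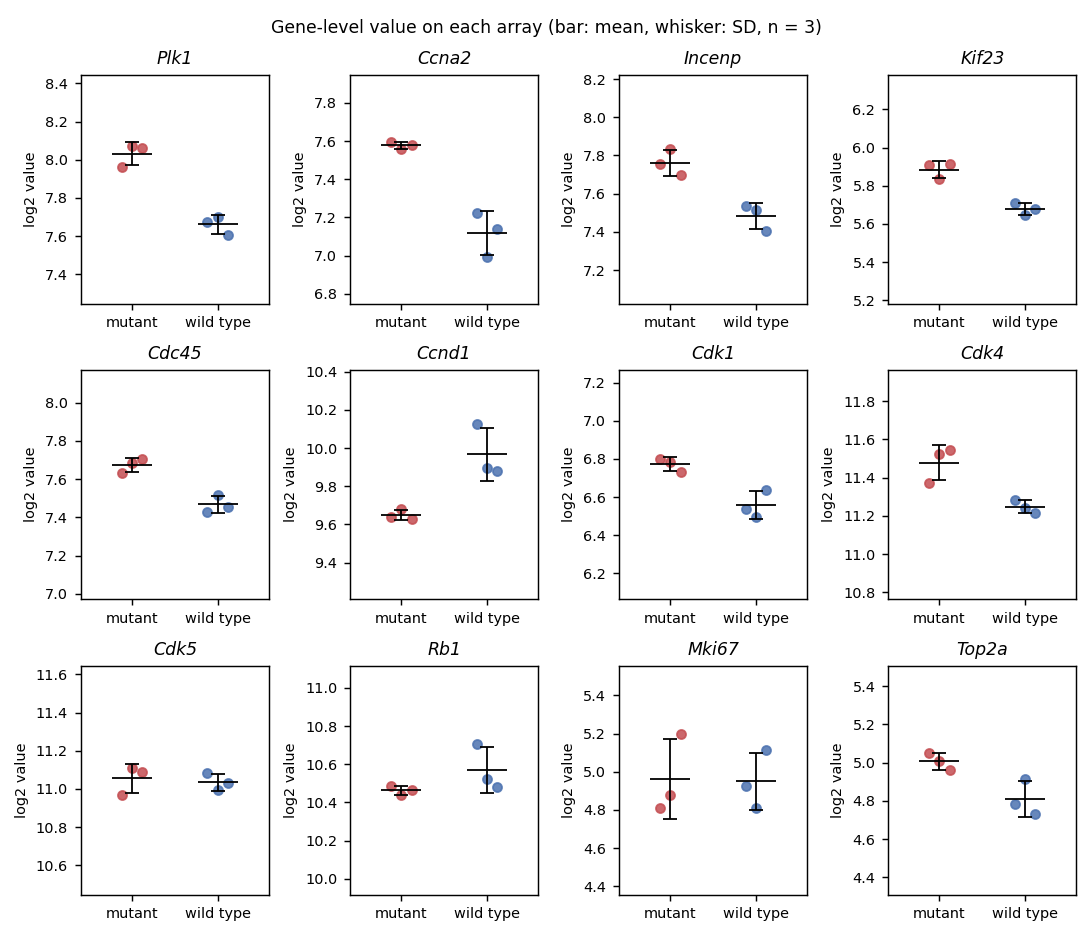
Gene-level value (log2) on each array for 12 genes, mutant on the left and wild type on the right, with the mean as a bar and the SD as a whisker (n = 3 each). In Plk1, Ccna2, Incenp, Kif23, Cdc45, Cdk1, Cdk4 and Top2a all mutant points lie above all wild-type points, in Ccnd1 all lie below, and in Cdk5, Rb1 and Mki67 the groups overlap.

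Genes of the spindle checkpoint and Cdc20, the APC/C activator it restrains, showed no call among 6. Differences were 0.03 ± 0.04 for Cdc20, 0.09 ± 0.06 for Bub1, 0.10 ± 0.06 for Bub3, 0.10 ± 0.07 for Mad2l1 and 0.05 ± 0.04 for Ttk, the checkpoint kinase Mps1 (log2, SE). Bub1b, which encodes BubR1, went the other way at -0.21 ± 0.10 (adjusted p = 0.268, limma), with mutant values of 7.05, 6.74 and 6.90 against 7.24, 7.05 and 7.04 in wild type that overlapped at their edge. All 6 genes had overlapping groups.

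Incenp, the scaffold of the chromosomal passenger complex, came nearest to the threshold among the genes that missed it. It was at 7.76, 7.83 and 7.70 in mutants and at 7.53, 7.52 and 7.41 in wild type, a difference of 0.28 ± 0.06 (log2, SE; adjusted p = 0.0536, limma). Its partners in the complex lay near 0. Aurkb, the kinase that Incenp activates, differed by -0.02 ± 0.04 and Birc5, the survivin subunit, by -0.01 ± 0.06. Aurka, the Aurora kinase of the spindle poles, differed by 0.10 ± 0.09. The centromeric histone Cenpa was at 0.04 ± 0.05 and the kinetochore motor Cenpe at 0.01 ± 0.04, with overlapping groups in both.

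Among the spindle motors and microtubule organisers all 5 differences were above 0, as were 51.8% of all genes, and none passed. All 5 genes were low, at percentiles 13.4 to 17.3 of level. Kif23, the motor of the central spindle needed for cytokinesis, was at 5.91, 5.84 and 5.91 in mutants, against 5.71, 5.65 and 5.68 in wild type. The groups lay apart by 0.21 ± 0.04 (log2, SE; adjusted p = 0.0572, limma). Nusap1, which bundles spindle microtubules, was at 5.71, 5.70 and 5.59 in mutants and 5.49, 5.49 and 5.54 in wild type, a difference of 0.16 with an adjusted p of 0.134. The remaining 3 overlapped: Kif11, the motor that separates spindle poles, at 0.05 ± 0.05, Tpx2, an activator of Aurora A, at 0.06 ± 0.05, and Prc1, which bundles the midzone, at 0.09 ± 0.10. By the median of its probe sets Prc1 was below 0, at -0.15.

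Neither of the standard markers of dividing cells passed. Top2a, the topoisomerase that untangles replicated DNA, was at 5.05, 5.01 and 4.96 in mutants and at 4.78, 4.91 and 4.73 in wild type, a difference of 0.20 ± 0.06 (log2, SE; adjusted p = 0.126, limma) with no overlap. Mki67, which encodes the Ki-67 antigen of cycling cells, was at 4.81, 4.88 and 5.20 in mutants and at 4.93, 4.81 and 5.11 in wild type. Its difference was 0.01 ± 0.13 with an adjusted p of 0.970, and replicate 3 was the highest array in both genotypes. Both genes lay near the bottom of the table, Top2a at percentile 8.53 and Mki67 at percentile 8.86 of level.

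The E2F and retinoblastoma genes, which gate entry into DNA synthesis, showed no call. E2f1 differed by 0.11 ± 0.08, Rbl1 by -0.01 ± 0.06 and Rbl2 by -0.02 ± 0.04 (log2, SE). Rb1, which encodes the retinoblastoma protein itself, had 10.49, 10.44 and 10.46 in mutants and 10.71, 10.52 and 10.48 in wild type. Wild-type replicate 1 was the high array, the groups overlapped, and the difference was -0.11 ± 0.07 (adjusted p = 0.427, limma). Of the enzymes that make deoxynucleotides, Tyms differed by 0.07 ± 0.05. Rrm1, the large subunit of ribonucleotide reductase, had mutant values of 9.14, 9.15 and 9.17 against 9.19, 9.20 and 9.18 in wild type, so that its groups stood apart by a difference of only -0.04 (adjusted p = 0.648).

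At exon level each gene was read by several probe sets, each a short stretch of the transcript. Of the 779 probe sets of the group, 6 passed, all higher in the mutant, which was 0.770% against 0.593% of all probe sets with 1 symbol. None was lower at the threshold, against 0.423% of all, and 26 were lower at an unadjusted p under 0.05 by limma. Counting both directions at that looser limit, 112 of the 779 differed, against 17% of all, and at the adjusted threshold 1.02% of all did. In 95 probe sets (12.2%) the mutant arrays all lay above wild type, against 14.1% of all, and in 44 (5.65%) all lay below, against 10.3%. Differences were above 0 in 465 of the 779 (59.7%), compared with 53.1% of all probe sets. As many as 582 of the 779 lay below the median level of the exon table.

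Ccna2 carried 3 of the 6 calls. Probe set 5139416 was at 8.17, 8.35 and 8.31 in mutants and 7.63, 7.67 and 7.75 in wild type, a difference of 0.59 ± 0.09 (log2, SE; adjusted p = 0.0422, limma). Probe sets 5002810 and 4563659 differed by 0.85 and 0.89, with adjusted p-values of 0.0426 and 0.0428. Differences were above 0 in 12 of the 13 Ccna2 probe sets, against 53.1% of all probe sets with 1 symbol. In 8 of them the mutant arrays all lay above wild type, against 14.1% of all. They were read on the same hybridisations as the gene-level call and are not separate support for it. The differences ranged between -0.15 for probe set 4998072, the only one below 0, and 0.96 for probe set 5223804. The latter lay at 5.23 ± 0.50 in mutants and 4.27 ± 0.24 in wild type (SD, n = 3 each).

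Plk1 had a difference above 0 in 11 of its 14 probe sets, against 53.1% of all probe sets with 1 symbol. Probe set 4884479 passed at 8.34, 8.34 and 8.63 in mutants and 7.82, 7.75 and 7.75 in wild type, a difference of 0.67 ± 0.11 (log2, SE; adjusted p = 0.0489, limma). In 6 of the 14 the mutant arrays all lay above wild type, against 14.1% of all, and 3 of the 14 were below 0. These too share their hybridisations with the gene-level call. The range was -0.16 for probe set 5429041 to 0.72 for probe set 4950166. In probe set 4950166 wild-type replicate 1 was far below the other wild-type arrays, at 6.75 against 7.80 and 7.55, while the mutant arrays were at 8.20, 8.20 and 7.85.

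A call in 1 probe set also occurred in 2 genes that had missed the threshold at gene level. Cdk1 probe set 5275259 was at 7.65, 7.59 and 7.82 in mutants, against 6.96, 6.86 and 7.11 in wild type, a difference of 0.71 ± 0.11 (log2, SE; adjusted p = 0.0426, limma). Cdc45 probe set 5124138 was at 7.25, 7.61 and 7.64 in mutants, against 6.55, 6.63 and 6.76 in wild type, a difference of 0.86 ± 0.13 with an adjusted p of 0.0438. Counting the called probe set itself, 9 of 10 were above 0 in Cdk1 and 18 of 23 in Cdc45, against 53.1% of all probe sets with 1 symbol. None of the 6 calls remained when any 1 array was left out or with the replicate number as a block, settings in which no probe set of the whole table passed.

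**Figure D3:**
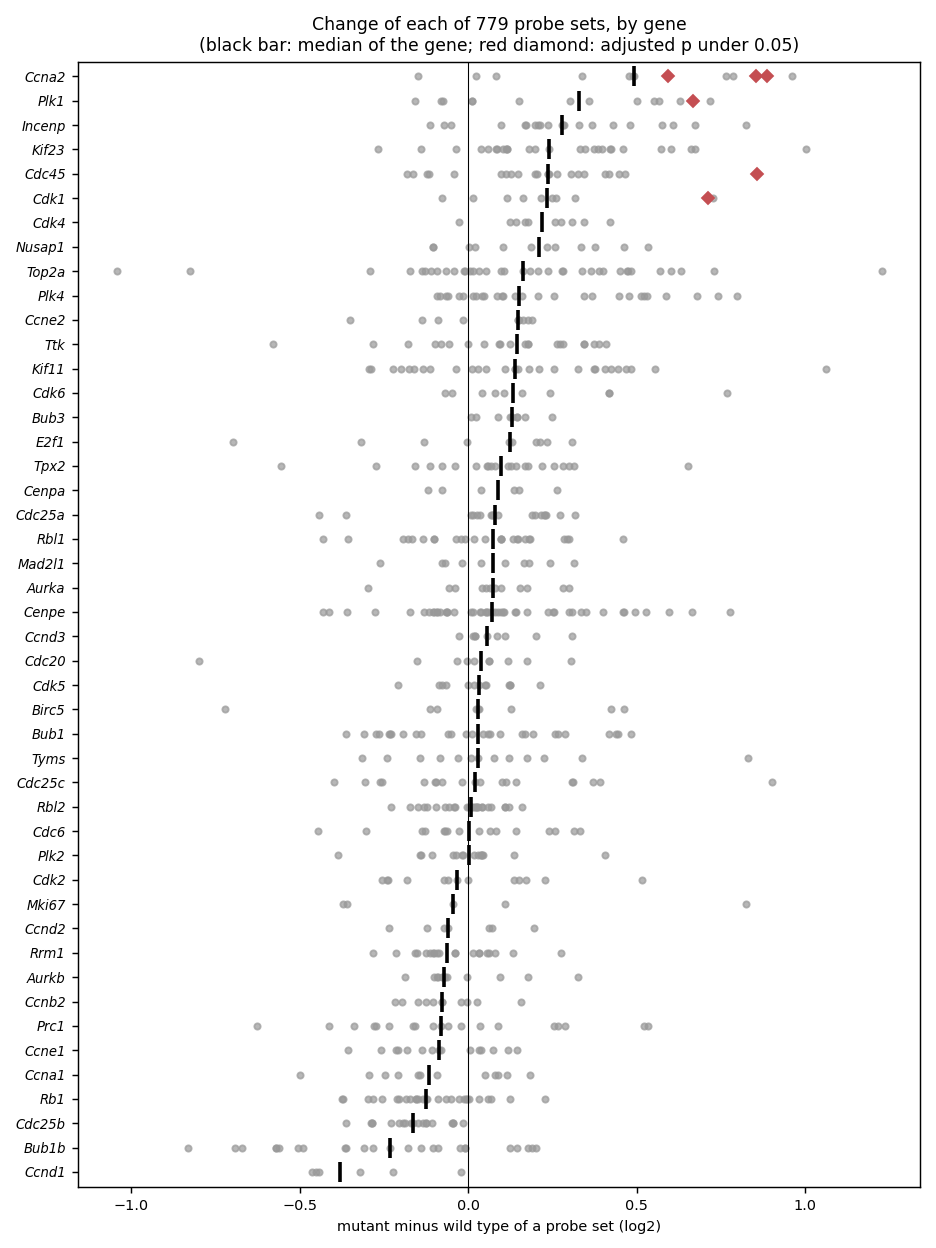
Difference of each of the 779 probe sets, mutant minus wild type on a log2 axis, in 1 line per gene ordered by the median of the gene, which is the black bar. Red diamonds mark the 6 probe sets with an adjusted p under 0.05, in Ccna2, Plk1, Cdc45 and Cdk1, and the medians run between 0.49 in Ccna2 and -0.38 in Ccnd1.

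How evenly the probe sets of a gene were placed differed from gene to gene. Kif23 had 24 of 27 above 0, Incenp 18 of 21, Cdk4 9 of 10 and Nusap1 10 of 12, and all 9 of Bub3 were above 0. Over all probe sets with 1 symbol 53.1% were. On the other side, all 6 probe sets of Ccnd1 and all 19 of Cdc25b were below 0, as were 20 of 25 in Bub1b and 22 of 28 in Rb1. Probe sets of 1 gene are read on the same arrays and are not replicates. Top2a was the widest, between -1.04 and 1.23, with 25 of 37 above 0. Its probe set 5122506 was at 5.31, 5.84 and 5.03 in mutants and 4.32, 4.10 and 4.08 in wild type, with an adjusted p of 0.0536 by limma.

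**Figure D4:**
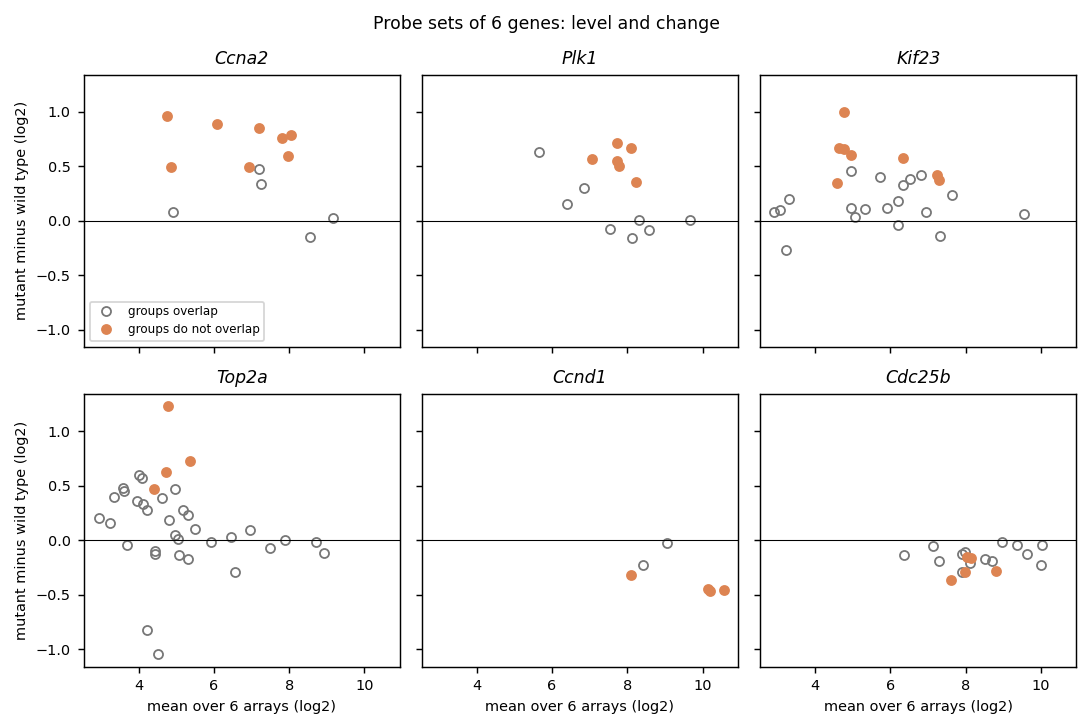
Probe sets of Ccna2, Plk1, Kif23, Top2a, Ccnd1 and Cdc25b, by mean log2 level over the 6 arrays on the horizontal axis and by mutant minus wild type (log2) on the vertical axis. Filled points are probe sets whose groups do not overlap, 8 in Ccna2, 6 in Plk1, 8 in Kif23, 4 in Top2a, 4 in Ccnd1 and 5 in Cdc25b. Over all probe sets with 1 symbol, 14.1% had such groups higher in the mutant and 10.3% lower. The Top2a points spread most at low level, between -1.04 and 1.23.

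Exon usage was compared because the mutated RNA is part of the splicing machinery. The measure was the splicing index, the value of a probe set minus the median of all probe sets of its gene on the same array. Only 161 probe sets of 12 genes were high enough to be tested: Rb1, Rrm1, Bub3, Rbl2, Cdc25a, Ccnd1, Mad2l1, Ccnd3, Cdk4, Cdk5, Ccnd2 and Ccne2. The other 34 genes, Plk1 and Ccna2 among them, were not tested. None of the 161 passed by limma, against 0.00837% of the 107553 probe sets tested. At an unadjusted p under 0.05 there were 24, where the share over all probe sets tested was 11.2%, and in 30 the groups did not overlap, against 15.9% of all.

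The smallest p belonged to probe set 4549200 of Cdc25a. Its index was 2.09, 2.41 and 2.17 in mutants and 2.86, 2.69 and 2.78 in wild type, a difference of -0.55 ± 0.10 (log2, SE; adjusted p = 0.189, limma) with no overlap. The signal of that probe set was 11.20 ± 0.20 in mutants and 11.64 ± 0.10 in wild type (SD, n = 3 each), while the gene as a whole was at 9.19 and 9.10. Next came probe set 4915920 of Ccne2, with an index of -1.26, -1.23 and -1.36 in mutants against -0.77, -0.99 and -0.71 in wild type, a difference of -0.45 and an adjusted p of 0.206. Both passed with diffSplice in limma, at adjusted p-values of 0.0133 and 0.0218, a setting under which 1.26% of all probe sets tested passed. With the mean of the probe sets as the level of the gene, the Cdc25a probe set passed with an adjusted p of 0.0447, among 0.149% of all tested.

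The other 8 of the 10 probe sets with the smallest p came from Ccnd1, Cdk4, Rrm1 and Rb1, with adjusted p-values between 0.242 and 0.330 by limma. Ccnd1 had 3 of them, at -0.23 and -0.22 for probe sets 5027245 and 4350513 and 0.20 for probe set 5043168. The last 2 are not separate observations: they are the middle values of the gene on every array but wild-type replicate 2, so that their indices there are equal and opposite by construction. Cdk4 had 2, both lower in index at -0.18 and -0.20, and Rrm1 had 2, both higher at 0.21 and 0.23. The Rb1 probe set 5403545 was higher by 0.36. Ccnd1 has 6 probe sets, so its median, and with it every index of the gene, rests on few values.

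Cell cycle genes outside the group were read from 8 lists of 121 genes, of which 107 were measured. In these, 10 (9.35%) rose and 2 (1.87%) fell in the mutant, against 4.21% and 2.29% of all genes. The lists were chosen with earlier results of these data known, and no test of the shares was made. The helicase and licensing list gave 3 of the rises among 15 genes: Mcm5, Mcm4 and Mcm2, subunits of the helicase that Cdc45 joins. Mcm5 was at 8.915, 8.999 and 9.019 in mutants and 8.011, 8.058 and 7.993 in wild type (log2), or 1.94-fold higher in the mutant (adjusted p = 0.00384, limma). Mcm4 rose by 0.35 and Mcm2 by 0.32.

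The other rises were spread over 6 of the 8 lists. They were E2f4, a repressor E2F of quiescent cells, by 0.45 (log2), Smc4, a condensin core subunit, by 0.44, Cdkn2c, an inhibitor of Cdk4 and Cdk6, by 0.39, Cenpk, a constitutive kinetochore protein, by 0.38, Ect2, which triggers the cytokinetic ring, by 0.28, Zw10 of the kinetochore by 0.23 and Skp2, which marks the inhibitor p27 for destruction, by 0.22. Anapc5, an APC/C subunit, fell by 0.33, and Ccng2, a cyclin linked with cell cycle arrest, fell by 0.29. None of the 12 passed with the replicate number as a block, where no row of the table did. Leaving out 1 array kept between 1 and 4 calls in these lists.

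Among the lists of cell type markers, that of microglia and macrophages held most of the calls. All 15 measured microglia and macrophage markers of 16 listed had a difference above 0, against 51.8% of all genes. Of these 15, 11 rose, against 4.21% of all genes. The marker lists were chosen with earlier results of these data known, so the counts are a description and not a test. The mean of the list relative to its wild-type mean was 0.66, 1.22 and 0.80 (log2) in mutants and 0.03, 0.02 and -0.05 in wild type. Cd53, a surface protein of these cells, rose by 0.92 and C1qb, a complement subunit they secrete, by 1.55. The part of these cells in the differences of Ccna2, Plk1 and the other genes was not tested.

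Lists for cells that divide in the young cerebellum showed no call. Of 7 oligodendrocyte precursor markers none passed, with list means of 0.01, 0.03 and 0.02 in mutants and -0.006, -0.003 and 0.009 in wild type, and none was past an unadjusted p of 0.05 by limma. Of 5 granule neuron precursor markers none passed either test limit, with means of -0.09, -0.03 and -0.02 in mutants and 0.0004, 0.009 and -0.009 in wild type. Among 7 astrocyte markers Gfap alone rose, by 1.48, and among 12 markers of mature neurons Gabra6, a granule neuron receptor subunit, alone fell, by 0.46. At an unadjusted p under 0.05 by limma, 2 astrocyte markers were higher and 0 lower. At that limit 3 neuron markers were lower and 1 higher, where 23.8% of all genes differed in either direction. Of the 12 neuron markers 10 had a difference below 0. No marker passed by limma among 8 of endothelial cells and pericytes, with 0 at an unadjusted p under 0.05, or among 6 of blood cells, with 1 at that limit, the leukocyte gene Ptprc at 0.26.

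**Figure D5:**
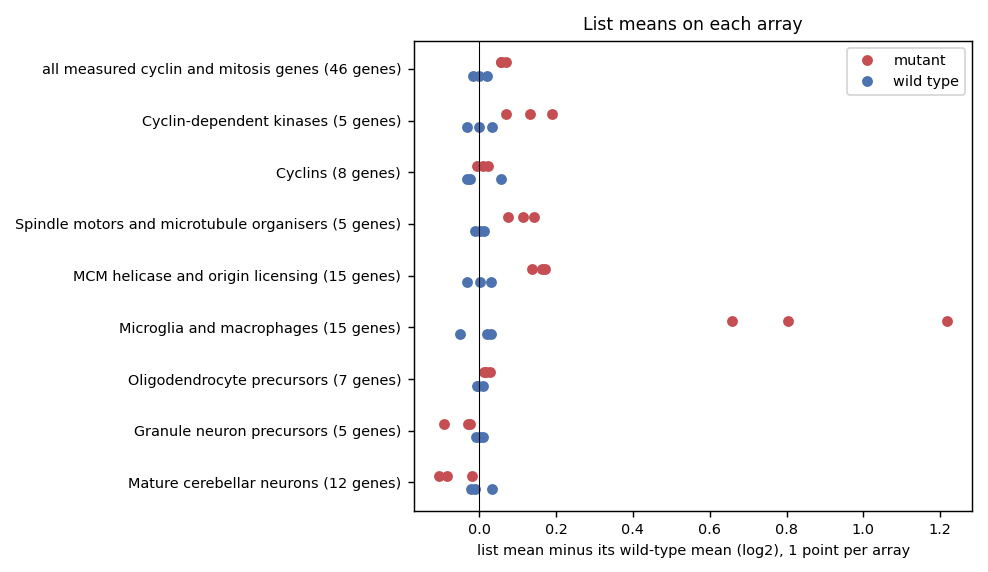
Mean of each gene list on each array, relative to the wild-type mean of the list (log2), with mutant arrays in red above wild-type arrays in blue. The 46 cyclin and mitosis genes lie at 0.06 to 0.07 in mutants and -0.02 to 0.02 in wild type, while the microglia markers lie at 0.66 to 1.22 in mutants and -0.05 to 0.03 in wild type.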

How the data were processed

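RNA of the cerebellum from 3 NMF291–/– and 3 wild-type mice was hybridised to 6 arrays, and each array has a gene-level set of values (23332 rows, 16755 transcript clusters and 6577 single probe sets) and an exon-level set (229581 probe sets). Since both summarise one hybridisation, they were tested separately. The values deposited by the authors were read as log2 because of their range. How they were background corrected, normalized and summarised is not given in the sources used here. The submitters' processing notes name build mm8. The mice are biological replicates per the series text, and with arrays there is no count depth: the number of arrays limits the precision.

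Symbols came from the platform annotation, updated through RefSeq (GRCm38.p6, which also gave chromosomes and promoters), and only from rows with 1 symbol. A gene with several transcript clusters was taken from the one with the highest mean. Differences are mutant minus wild type, tested two-sided with limma 3.58.1 (lmFit, eBayes) in R 4.3.3 over all rows with no filter or covariate, and called at a Benjamini-Hochberg adjusted p under 0.05. The splicing index was tested in genes with at least 3 probe sets, a gene median at or above the 50th percentile (8.55) and probe sets at or above the 25th (7.06). When a probe set is itself the median, its index is 0 on that array, so its spread may be too small. Fits were tested on simulated data.

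The cell cycle genes and all lists were chosen with earlier results of these data known. Values on each array were given by rule for the called genes, the 6 smallest p-values that missed, the 3 highest levels, Mki67, Top2a and Cdk1. Those of Bub1b, Nusap1, Cdc25b and Rrm1, and probe sets outside the rule, were chosen after they were seen. Marker genes named are the 2 of smallest p among microglia markers, those that passed in other lists, and Ptprc, chosen after its value was seen. Same-numbered arrays did not deviate together (correlations -0.01, -0.04 and 0.03), so numbers were not used as pairs. Alternatives tried were a replicate block, a level filter, eBayes with trend and robustness, median centring, quantile normalization, weights for arrays, a limit of 0.1, leaving out each array, testing transcript clusters alone, taking the probe set median as gene level, 2 other ways to set the level or filter of the index, and diffSplice. Plots were made in Python 3.11.15 (matplotlib 3.10.9).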

Additional observations from a re-analysis of the deposited data

How the results depend on the processing

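Counts of calls depended strongly on the settings, as given here for limma with 3 arrays per genotype. The replicate number as a block gave 0 calls among the 46 genes, 0 among their probe sets and 0 among the other cell cycle genes, as it did in both whole tables; 11 genes, 131 probe sets and 26 other genes were then at an unadjusted p under 0.05. Of the 46 genes, 5 passed with trend and robust settings (9.21% of all rows), 4 with array weights (7.07%), 8 at an adjusted p under 0.1 (11.9%) and 8 over transcript clusters only (11.7%), against 2 with the default settings (5.75%), so that the whole table gained calls under each of these too. Leaving out an array left 0 to 1 of these genes, Ccna2 without wild-type replicate 1. Of the probe sets, 15 of the 197 that were kept passed with the level filter (11.7% of all probe sets kept), 28 of 779 with trend and robust settings (6.78% of all) and 21 at an adjusted p under 0.1 (3.57%), against 6 (1%); leaving out an array left 0 to 0, with 101 to 126 at an unadjusted p under 0.05. For exon usage, 1 passed with the mean as gene level and 2 with diffSplice, and 0 under every other setting run. The other cell cycle genes gave 19 calls at an adjusted p under 0.1 (11.9% of all rows), 17 over transcript clusters only (11.7%) and 8 with the median of a gene's probe sets (4.21% of genes), against 12, and 1 to 4 with an array left out.

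Among the 12 cell cycle genes given by array under the rule, Cdk5 and Mki67, with differences near 0, changed sign; Bub1b, Nusap1, Cdc25b and Rrm1 were not recomputed gene by gene. Cdk5 was at -0.0291 with median centring, and at -0.00535 to 0.0641 with an array left out, below 0 without mutant replicate 2 and without wild-type replicate 2. Mki67 was at -0.0195 with quantile normalization, -0.0375 with median centring and -0.106 to 0.0931 with an array left out, below 0 without mutant replicate 3, wild-type replicate 1 or wild-type replicate 2. Plk1 kept its direction in all 14 alternatives at 0.32 to 0.40 (log2; adjusted p 0.00767 to 0.103), and Ccna2 at 0.40 to 0.68 (adjusted p 0.00474 to 0.0971). The cause of these shifts was not tested. The share of rises among all calls was 68.6% as deposited, 53.3% after quantile normalization and 46.9% after median centring. Of the 46 genes, 32 lie below the median row, and no measure of signal over background was used here.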

Other observations

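The deposited gene-level value and the median of a gene's own probe sets did not always have the same sign of difference. For 35 of the 46 genes they did. The other 11 were Plk2, Ccna1, Ccne1, Cdk2, Cdc20, Ttk, Aurkb, Birc5, Cenpa, Prc1 and Rbl1. Prc1 had the widest gap of these, at 0.09 in the deposited value and -0.15 by the median of its probe sets (log2), and Birc5 came next at -0.01 and 0.15. For Ccna2 the median of the probe sets gave a larger difference, 0.68 against 0.46. Cdk4, at 0.32 by that median, passed there with Plk1 and Ccna2, where 4.21% of 15207 genes passed by limma.

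The 19 probe sets of Cdc25b were all below 0 in mutant minus wild type, with a median of -0.16 (log2). In 5 of them the mutant values all lay below wild type, where 10.3% of all probe sets with 1 symbol did. Its deposited gene-level groups overlapped. Wild-type replicate 2, at 8.18, lay above every mutant array, and wild-type replicates 1 and 3, at 7.75 and 7.79, did not. Kif11, at 0.05 by its gene-level value, had a probe set with a difference of 1.06, and 20 of its 29 probe sets were above 0.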
